A study of Homo sapiens with 16 samples.

Results

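The genes described here are TTR, CLIC6, KCNJ13, FOLR1, AQP1, LMX1A and KL. They are used as markers of the roof plate of the neural tube or of the choroid plexus that grows out of it. They were chosen by name, and all 7 were found among the 57736 genes of the count table and passed the filter on low counts, which kept 24249 genes for testing. The study asked how a sustained rise in O-GlcNAc, a sugar placed on serine and threonine residues of nuclear and cytosolic proteins, alters gene expression while human embryonic stem cells become cortical neurons. H9, an established human embryonic stem cell line, was taken toward cortical neurons with LDN-193189, an inhibitor of BMP signalling, and SB-431542, an inhibitor of the TGF-β receptor kinase (dual SMAD inhibition). Cultures received 40 µM Thiamet-G (TMG), which blocks OGA, the enzyme that removes O-GlcNAc, or its solvent DMSO as control. Total RNA depleted of ribosomal RNA was sequenced at D0 (undifferentiated cells), D12, D30 and D70, with 2 replicates of each arm at each stage, so that there were 8 groups and 16 libraries. All groups came from the same cell line, and both arms saw the same differentiation agents. Groups were taken from the sample titles, since the treatment tag of 8 libraries goes against its own title. The sample descriptions and the columns of the count table go with the titles, while the tags read control in every replicate 1 library and TMG in every replicate 2 library. Grouped by the tags, each stage would set replicate 1 against replicate 2, the division seen at D70 below, and the comparisons of TMG with control given here would not hold.

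The roof plate is the dorsal midline of the neural tube, a source of BMP and WNT ligands, and in the telencephalon its neighbour is the cortical hem. Part of this midline becomes the choroid plexus, a ciliated secretory epithelium that makes cerebrospinal fluid. LMX1A is a LIM-homeodomain factor needed for roof plate formation and also made in the midbrain floor plate. TTR carries thyroxine and is the most abundant secreted product of choroid plexus epithelium, and it is made as well by liver, yolk sac and retinal pigment epithelium. CLIC6 belongs to the chloride intracellular channel family, KCNJ13 encodes the inward rectifier potassium channel Kir7.1, AQP1 a water channel of the apical membrane, FOLR1 the folate receptor alpha that moves folate into cerebrospinal fluid, and KL the FGF23 co-receptor Klotho.

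The libraries held between 10334908 and 19836878 counts. A level is given below in CPM, counts scaled to a common library total after TMM adjustment. Both D70 replicate 2 libraries stood apart from their partners. The summed CPM of 8 mesenchymal markers was 45509 in the control and 59449 in the TMG replicate 2 library, against 7607.5 and 3842.0 in the replicate 1 libraries. At D30 the TMG replicate 2 library was also high, at 30051 beside 4518.6 to 5681.6 in the other D30 libraries. The D70 TMG replicate 2 library held 27 counts of PAX6, the neural progenitor factor, where the other D70 libraries held 3881 to 7426. For the 7 genes and the roof plate and choroid plexus lists, counts of calls that involve D70 are therefore also given without these 2 libraries. So are the D70 differences between TMG and control in the 7 genes. This alternative was chosen after seeing the data and leaves 1 library in each D70 arm, where the other groups give the spread. For genes low in both replicate 2 libraries, its rises to D70 are in part set by that choice. In bulk RNA of this kind, fewer cells of a type and less RNA per cell cannot be told apart.

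Promoter sequence was looked up for all 7 genes and matched for 4, with 2 entries for LMX1A (RefSeq, GRCh38.p14). The 250 bases before the annotated start of KCNJ13, AQP1 and KL are shown because each holds 1 of 3 motifs searched on both strands, printed in capitals. These were the TATA box TATAAA, the OTX-type homeodomain core TAATCC (OTX2 is a homeodomain factor of choroid plexus) and the LIM-homeodomain core TAATTA. Of 27305 promoters of this length, 11.1% held TATAAA, 5.67% TAATCC and 4.49% TAATTA.
KCNJ13 promoter, chr2:232776566-232776815, minus strand: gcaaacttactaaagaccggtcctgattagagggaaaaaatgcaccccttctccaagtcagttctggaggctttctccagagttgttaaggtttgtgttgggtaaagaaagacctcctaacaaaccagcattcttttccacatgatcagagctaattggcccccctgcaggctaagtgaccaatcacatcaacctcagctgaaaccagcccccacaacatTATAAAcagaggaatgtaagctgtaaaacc
AQP1 promoter, chr7:30911603-30911852, plus strand: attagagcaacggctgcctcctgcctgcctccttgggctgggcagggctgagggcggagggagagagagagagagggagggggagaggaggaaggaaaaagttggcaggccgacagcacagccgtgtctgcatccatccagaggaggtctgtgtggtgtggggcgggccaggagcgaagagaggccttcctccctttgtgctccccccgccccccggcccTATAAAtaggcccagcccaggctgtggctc
KL promoter, chr13:33016173-33016422, plus strand: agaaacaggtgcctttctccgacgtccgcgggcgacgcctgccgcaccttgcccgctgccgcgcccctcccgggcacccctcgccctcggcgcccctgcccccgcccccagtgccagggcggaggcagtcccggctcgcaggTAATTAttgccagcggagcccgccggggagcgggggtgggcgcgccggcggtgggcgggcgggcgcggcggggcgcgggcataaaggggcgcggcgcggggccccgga
The first base of TATAAA stood 30 bases before the start in both KCNJ13 and AQP1, the genes of the potassium and the water channel. TAATTA began 108 bases before the start of KL. The GC content of the KL window was 80%, that of AQP1 65.2% and that of KCNJ13 45.2%, beside a median of 58.0% over all promoters. Neither LMX1A entry held any of these letter strings. A match is a description of the letters and no measure of binding.

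LMX1A (ENSG00000162761, chromosome 1, 165171104 to 165325952, minus strand, GRCh37) had its highest level at D12 in both arms. At D0 it stood at 0.0618 and 0.210 CPM in the control and at 0.343 and 0.309 CPM in the TMG libraries, which rest on 1 to 6 counts each. At D12 the control libraries held 171.8 and 216.2 CPM and the TMG libraries 264.9 and 141.03 CPM. At D30 the levels were 69.5 and 102.6 CPM in the control and 119.2 and 62.7 CPM under TMG. The D70 replicate 1 libraries held 113.5 CPM (control) and 54.9 CPM (TMG), and the replicate 2 libraries 2.25 and 1.02 CPM. All 4 D12 libraries were thus above every library of the other stages, and the D70 libraries divided by replicate number. From D0 to D12 LMX1A rose in the control by 10.43 on the log2 scale (SE 2.33, adjusted p = 0.0143) and under TMG by 9.25 (SE 2.13, adjusted p = 0.0158). These calls were lost without either D0 library of the same arm (control adjusted p = 0.11 and 0.0914, TMG 0.126 and 0.132), and under TMG also without D12 replicate 1 (0.0621). They were lost as well when genes with low counts were not filtered out (adjusted p = 0.0556 and 0.062). From D12 to D30 the differences of −1.17 (SE 1.41) in the control and −1.16 (SE 1.41) under TMG did not pass the test. From D0 to D70 LMX1A rose by 8.69 (SE 2.26, adjusted p = 0.0158) in the control and by 6.40 (SE 1.98, adjusted p = 0.0335) under TMG. Without the D70 replicate 1 library of the arm these values were 4.01 (adjusted p = 0.202) and 1.61 (adjusted p = 0.64), and without either D0 library of the arm the calls were lost as well (control adjusted p = 0.109 and 0.0917, TMG 0.163 and 0.178). The D70 to D30 difference in the control, −0.57 (SE 1.39), was −5.26 without D70 control replicate 1 and 0.40 without both D70 replicate 2 libraries, so its direction rests on which library is kept.

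TTR (ENSG00000118271, chromosome 18, 29136972 to 29178796, plus strand) spanned the widest range. The control libraries held 27 and 0 counts at D0, 13 and 19 at D12, 388 and 3449 at D30, and 152628 and 2455 at D70. The TMG libraries held 4 and 1 counts at D0, 175 and 54 at D12, 1455 and 2781 at D30, and 36862 and 3 at D70. In CPM the D30 libraries stood at 36.5 and 173.1 (control) and 141.3 and 263.2 (TMG), all above every D0 and D12 library. The D70 libraries stood at 9812 and 197.6 CPM (control) and at 2912.5 and 0.277 CPM (TMG). In D70 control replicate 1 TTR took 0.860% of all counts and was the gene ranked 8 in the library, and in TMG replicate 1 it took 0.261% and ranked 13. In D70 TMG replicate 2 it was at a D0 level. Over the whole course TTR rose by 12.50 (SE 3.45, adjusted p = 0.0206) in the control and by 13.17 (SE 3.70, adjusted p = 0.0229) under TMG. The control value fell outside the threshold without D70 control replicate 1 (7.83, adjusted p = 0.0774), and without either D0 control library (19.18 and 11.55, adjusted p = 0.0881 and 0.124). The TMG value was 0.85 without D70 TMG replicate 1 (adjusted p = 0.913) and was also lost without either D0 TMG library (adjusted p = 0.132 and 0.153). The D30 to D12 difference was 6.96 (SE 2.84, adjusted p = 0.196) in the control and 5.02 (SE 2.51, adjusted p = 0.381) under TMG. DESeq2 called the control difference (adjusted p = 0.0261), and edgeR called both without the D70 replicate 2 libraries (adjusted p = 0.00606 and 0.0161).

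CLIC6 (ENSG00000159212, chromosome 21, 36041293 to 36090525, plus strand) was detectable in every library. Its levels at D0 were 2.90 and 3.71 CPM in the control and 3.84 and 4.43 CPM under TMG. At D12 the replicate 1 libraries held 18.04 and 26.4 CPM (control, TMG) and the replicate 2 libraries 6.90 and 7.70 CPM. At D30 the control stood at 13.5 and 25.7 CPM and TMG at 35.7 and 34.8 CPM. At D70 the levels were 94.9 and 11.99 CPM in the control and 54.04 and 2.68 CPM under TMG. The highest value was thus a D70 replicate 1 library, and D70 TMG replicate 2 was below all D0 libraries. CLIC6 rose from D0 to D70 in the control by 4.01 (SE 1.29, adjusted p = 0.0379), a call that was lost in 9 of the 16 fits with 1 library left out (1.85 without D70 control replicate 1). Under TMG the same difference was 2.78 (SE 1.22, adjusted p = 0.111), and it was −0.64 without D70 TMG replicate 1 and 3.70 without D70 TMG replicate 2 (adjusted p = 0.0219), and DESeq2 called it (adjusted p = 0.0274).

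KCNJ13 (ENSG00000115474, chromosome 2, 233630512 to 233641275, minus strand) had the narrowest range. It stood at 7.97 and 7.48 CPM in the D0 control and at 9.61 and 9.53 CPM in the D0 TMG libraries. The D12 libraries held 21.8 and 18.6 CPM (control) and 22.03 and 17.7 CPM (TMG), and the D30 libraries 19.3 and 14.6 CPM (control) and 16.9 and 17.4 CPM (TMG). The D70 libraries held 38.9 and 15.5 CPM (control) and 21.8 and 10.5 CPM (TMG). Every library after D0 was above every D0 library. KCNJ13 rose from D0 to D12 in the control by 1.38 (SE 0.42, adjusted p = 0.0445), which 12 of the 16 fits with 1 library left out did not call (adjusted p up to 0.187). From D0 to D70 it rose by 1.82 (SE 0.42, adjusted p = 0.00922) in the control, and by 1.00 without D70 control replicate 1 (adjusted p = 0.0904). That call was also lost without either D0 control library (adjusted p = 0.0525 and 0.0653). Under TMG the D70 to D0 difference of 0.76 (SE 0.41, adjusted p = 0.188) passed only without both D70 replicate 2 libraries (1.21, adjusted p = 0.00424). Of the KCNJ13 exons, 22.3% of the 3636 bases overlap exons of GIGYF2 on the opposite strand, which held 1126 to 2813 counts. The counting is not stated to use strand, so reads from the shared bases cannot be told apart.

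FOLR1 (ENSG00000110195, chromosome 11, 71900602 to 71907367, plus strand) had 2 to 7 counts in each D0 library, 0.309 and 0.140 CPM in the control and 0.480 and 0.309 CPM under TMG. It stood at 3.88 and 9.53 CPM (control) and 8.10 and 6.71 CPM (TMG) at D12, and at 4.61 and 5.22 CPM (control) and 4.86 and 4.92 CPM (TMG) at D30. At D70 the replicate 1 libraries held 80.1 CPM (control) and 36.3 CPM (TMG), and the replicate 2 libraries 3.22 and 1.02 CPM, below every D12 and D30 library. FOLR1 rose from D0 to D70 in the control by 7.47 (SE 1.83, adjusted p = 0.0123) and under TMG by 5.56 (SE 1.67, adjusted p = 0.0301). Without D70 control replicate 1 the control value was 3.77 (adjusted p = 0.105), and without D70 TMG replicate 1 the TMG value was 1.36 (adjusted p = 0.57). Leaving out either D0 library of the arm also lost the call (control adjusted p = 0.0792 and 0.0923, TMG 0.144 and 0.174). The D12 to D0 differences of 4.83 (SE 1.72, adjusted p = 0.0787) in the control and 4.22 (SE 1.61, adjusted p = 0.0974) under TMG passed with DESeq2 (adjusted p = 0.00258 and 0.00732). In edgeR they passed without any 1 of the 4 D70 libraries (adjusted p 0.0266 to 0.0465).

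AQP1 (ENSG00000240583, chromosome 7, 30951468 to 30965132, plus strand) had a higher level at each later stage in every library. At D0 it stood at 0.680 and 0.490 CPM in the control and 0.686 and 0.361 CPM under TMG. At D12 the levels were 1.62 and 1.48 CPM (control) and 1.82 and 1.18 CPM (TMG), and at D30 they were 9.40 and 7.03 CPM (control) and 14.2 and 22.7 CPM (TMG). At D70 they reached 185.2 and 137.5 CPM (control) and 132.3 and 39.8 CPM (TMG). No library overlapped with a library of another stage, D70 replicate 2 included. The D12 to D0 differences of 1.39 (adjusted p = 0.146) in the control and 1.55 (adjusted p = 0.114) under TMG did not pass the test. AQP1 rose from D12 to D30 by 2.39 (SE 0.53, adjusted p = 0.0370) in the control and by 3.61 (SE 0.55, adjusted p = 0.0269) under TMG. From D30 to D70 it rose by 4.30 (SE 0.54, adjusted p = 0.0181) in the control, while the TMG difference of 2.22 (SE 0.49, adjusted p = 0.263) passed without D70 TMG replicate 2 (2.84, adjusted p = 0.0190) and with DESeq2 (adjusted p = 0.00468). Over the whole course it rose by 8.08 (SE 0.67, adjusted p = 5.7e-05) in the control and by 7.37 (SE 0.66, adjusted p = 8.1e-05) under TMG. These whole-course calls held in every fit with 1 library left out, the only such calls among the 7 genes. The D12 to D30 call was lost in 9 of the 16 such fits in the control and in 5 under TMG (adjusted p up to 0.22 and 0.266). Without the filter on low counts the control call was lost too (adjusted p = 0.0529). The D30 to D70 call in the control was lost without either D30 control library (adjusted p = 0.283 and 0.152). The whole-course values were 8.31 (SE 0.43) in the control and 8.03 (SE 0.43) under TMG without both D70 replicate 2 libraries.

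KL (ENSG00000133116, chromosome 13, 33590561 to 33640280, plus strand) was the lowest of the 7. It had 0 and 1 counts in the D0 control, 3 and 0 in D0 TMG, 9 and 2 in D12 control, 18 and 1 in D12 TMG, 2 and 1 in D30 control, and 8 and 2 in D30 TMG libraries. The D70 libraries held 18 and 16 counts (control) and 15 and 16 (TMG), that is 1.16 and 1.29 CPM and 1.19 and 1.48 CPM. KL was the only gene of the 7 in which all 4 D70 libraries, replicate 2 included, lay within a narrow band, and all 4 were above every earlier library. Summed over the control libraries, its CPM at D70 was 37.04 times that at D0, with a 95% exact interval of 6.21 to 1505 that covers counting error only. Under TMG the ratio was 14.96 (4.67 to 76.5). The fitted D70 to D0 value of 4.89 (SE 1.55, adjusted p = 0.0350) in the control rests on 0 and 1 counts at D0, and its call was lost without either D0 control library (adjusted p = 0.182 and 0.0952), and without either D70 control library (0.0755 and 0.069). The TMG value was 3.73 (SE 1.33, adjusted p = 0.0568). It passed with DESeq2 (adjusted p = 0.0428), and in edgeR with the replicate block and without the filter on low counts.

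**Figure D1:**
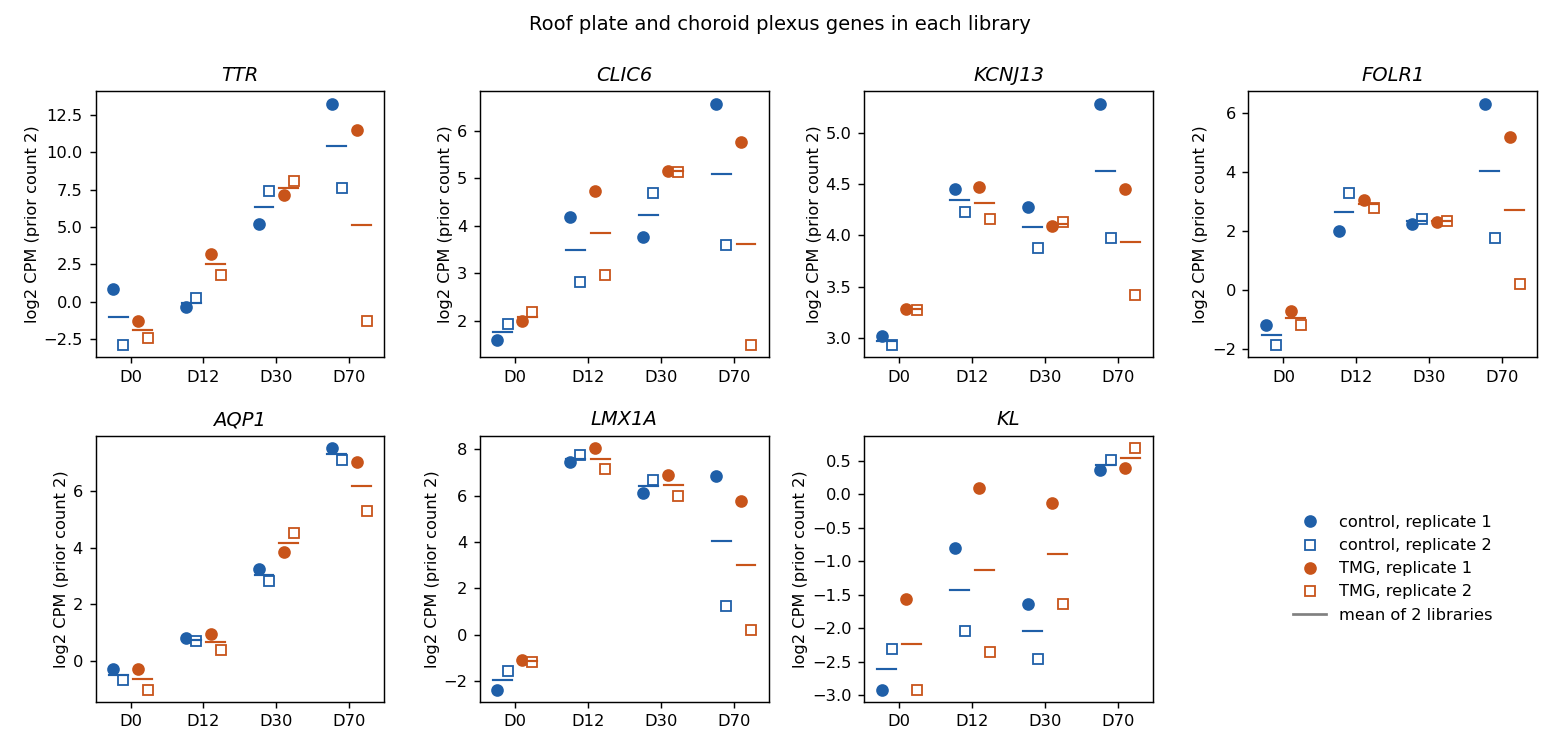
Level of each of the 7 genes in each of the 16 libraries, as log2 CPM with a prior count of 2, by stage on the x axis. Blue is control and orange TMG, filled circles are replicate 1 and open squares replicate 2, and bars are means of the 2 log values. At D70 the filled and open symbols separate in TTR, CLIC6, FOLR1 and LMX1A and lie close together in KL.

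Counted over stages in the control, 2 of the 7 genes rose from D0 to D12 (LMX1A and KCNJ13), where 6.97% of all tested genes rose and 9.71% fell. From D12 to D30 it was 1 of 7 (AQP1) beside 1.91% that rose and 1.69% that fell, and from D30 to D70 again 1 of 7 (AQP1) beside 0.305% and 0.0784%. From D0 to D70 all 7 rose, beside 15% of tested genes that rose and 14.7% that fell. Under TMG 1 of 7 (LMX1A) rose from D0 to D12 beside 7.24% that rose and 9.19% that fell, and 1 (AQP1) from D12 to D30 beside 0.388% and 0.124%. None did from D30 to D70, beside 0.00412% in each direction, and 4 (TTR, FOLR1, AQP1 and LMX1A) rose from D0 to D70, beside 14.9% that rose and 14.1% that fell. None of the 7 fell in any of these 8 comparisons. Without the filter on low counts 3 of the 7 passed from D0 to D70 in the control (KCNJ13, AQP1 and KL), 1 from D0 to D12 and 0 from D12 to D30, beside 13.2%, 7.13% and 1.86% of its tested genes called in either direction. Under TMG 2 then passed from D0 to D70 (AQP1 and KL) and 0 from D0 to D12, beside 12.7% and 7.23%. The count of 7 from D0 to D70 in the control dropped to 1, AQP1, without D70 control replicate 1 and without either D0 control library, where the remaining library of the arm is assumed to vary like those of the other groups. These 3 fits called 18.3%, 14.2% and 15.2% of all tested genes in either direction. Without both D70 replicate 2 libraries it was 6, with KL at an adjusted p of 0.0514, beside 33.9% of tested genes called in either direction. The corresponding count under TMG was 6, beside 31.1%. The same alternative called 5, 2 and 4 of the 7 genes in the control from D0 to D12, D12 to D30 and D30 to D70, beside 27.8%, 12.3% and 5.78% of tested genes. Under TMG it called 6, 2 and 2, beside 27.3%, 7.44% and 0.263%. KL had no DESeq2 adjusted p from D12 to D30 or from D30 to D70 in either arm, which leaves 6 genes there. DESeq2 on all libraries called 3, 2, 1 and 7 genes of the list in the control (D0 to D12, D12 to D30, D30 to D70, D0 to D70), beside 22.6%, 12.7%, 8.17% and 35.1% of its tested genes. Under TMG it called 2, 1, 1 and 6, beside 22.4%, 5.79%, 1.85% and 34%.

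TMG against control was compared at each stage. Of the 7 genes, none passed the test at D0, D12, D30 or D70, and 0% of the 24249 tested genes passed at each stage in edgeR. At an unadjusted p under 0.05, 306, 601, 2908 and 1332 genes (1.26%, 2.48%, 12% and 5.49%) differed at D0, D12, D30 and D70, and DESeq2 called 5, 11, 595 and 55 genes (0.0206%, 0.064%, 3.04% and 0.296%), none of the 7 among them (KL had no adjusted p there at D12, D30 and D70). AQP1 at D30 was the 1 case among the 7 genes and 4 stages with an unadjusted p under 0.05. At D30 its TMG libraries (14.2 and 22.7 CPM) were above its controls (9.40 and 7.03 CPM), a log2 difference of 1.17 (SE 0.49, edgeR adjusted p = 0.38). It was 0.79 without D30 TMG replicate 2, the library with high mesenchymal markers, whose part in the difference was not tested. At D70 its TMG libraries (132.3 and 39.8 CPM) were below its controls (185.2 and 137.5 CPM), a difference of −0.91 (SE 0.47, adjusted p = 0.905).

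In LMX1A the TMG differences were 1.25 (SE 2.97) at D0, 0.07 (SE 1.38) at D12, 0.08 (SE 1.39) at D30 and −1.05 (SE 1.41) at D70. The D12 and D30 values are thus close to 0 with errors of more than 1 log2 unit. In TTR they were −2.45 (SE 3.61), 2.89 (SE 2.52), 0.95 (SE 2.12) and −1.78 (SE 2.16). KCNJ13 had the smallest errors, 0.31 (SE 0.41), −0.02 (SE 0.41), 0.02 (SE 0.41) and −0.75 (SE 0.41). CLIC6 stood at 0.33 (SE 1.197), 0.45 (SE 1.13), 0.84 (SE 1.14) and −0.91 (SE 1.13). FOLR1 stood at 0.75 (SE 1.90), 0.15 (SE 1.31), −0.01 (SE 1.34) and −1.16 (SE 1.31). KL stood at 1.29 (SE 1.95), 0.85 (SE 1.16), 2.12 (SE 1.45) and 0.12 (SE 1.05). Its D30 value, the largest of the 7 genes at that stage, rests on 10 counts under TMG against 3 in the control. The CPM ratio was 4.88 (95% exact interval 1.26 to 27.6, counting error only). For all 7 genes but KL the D70 estimate was negative. Set side by side by replicate number, TMG was below control in both numbers in those 6 genes, beside 28.8% of tested genes. Without D70 control replicate 1 it turned to 2.89 in TTR, 1.25 in CLIC6, 0.065 in KCNJ13, 2.54 in FOLR1 and 3.64 in LMX1A, none of which passed. Without D70 TMG replicate 1 it was −14.11 in TTR (adjusted p = 0.04998, against a TMG library of 3 counts) and −2.03 in AQP1 (adjusted p = 0.0272), both past the threshold, with 799 genes called in all. Without both D70 replicate 2 libraries it was −1.75 in TTR, −0.83 in KCNJ13, −1.14 in FOLR1, −1.04 in LMX1A, −0.81 in CLIC6 and −0.48 in AQP1, and none passed.

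Both TMG libraries were above both controls in 4 of 7 genes at D0 (CLIC6, KCNJ13, FOLR1 and LMX1A), where this held for 19.7% of tested genes, and in none the reverse, beside 16.9%. At D12 only TTR was so placed (175 and 54 counts under TMG, 13 and 19 in the control), beside 17.8%. At D30 it was CLIC6, AQP1 and KL, beside 23.1%. At D70 none was above, beside 9.77%, and AQP1 was below, beside 12.4%. The 4 genes at D0 include FOLR1 and LMX1A with 1 to 7 counts a library.

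**Figure D2:**
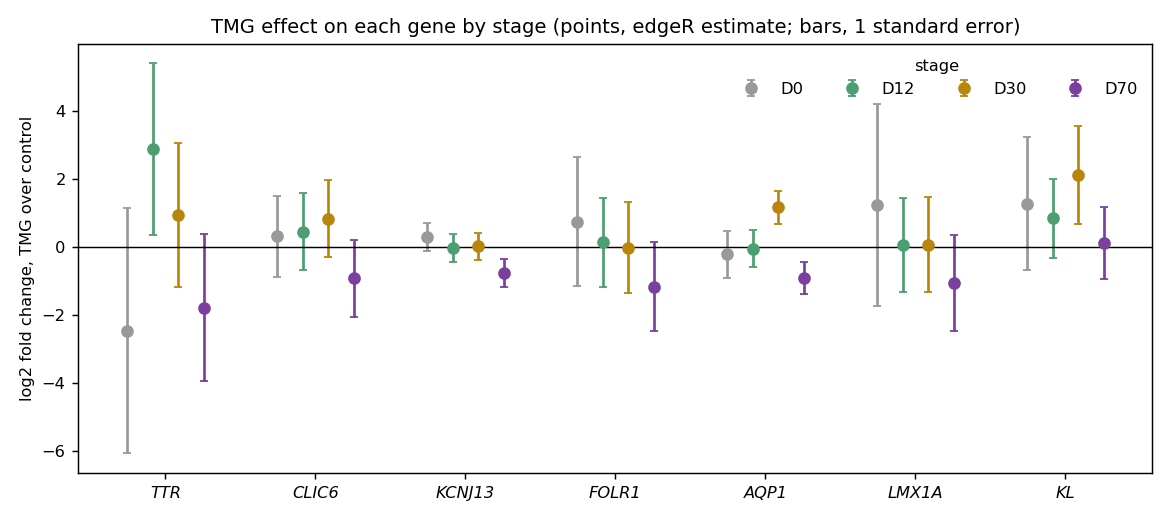
Log2 fold change of TMG over control for each of the 7 genes at each stage, as edgeR estimates (points) with 1 standard error (bars), from 2 libraries per group. No estimate passed the test, and AQP1 lies above 0 at D30 (1.17) and below 0 at D70 (−0.91).

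At D70 the replicates of each arm were compared gene by gene. TTR, CLIC6, FOLR1 and LMX1A were at least 4-fold higher in replicate 1 than in replicate 2 in both arms, 4 of 7 genes beside 2.95% of tested genes, and none was 4-fold higher in replicate 2, beside 2.8%. In the control the CPM ratio of replicate 1 to replicate 2 was 49.7 for TTR (95% exact counting interval 47.7 to 51.7), 50.4 for LMX1A (34.7 to 76.04), 24.9 for FOLR1 (18.2 to 35.0) and 7.91 for CLIC6 (6.68 to 9.43). Under TMG it was 10497 for TTR (3592 to 50903, with 3 counts in replicate 2), 53.98 for LMX1A (29.98 to 108.6), 35.7 for FOLR1 (19.8 to 72.1) and 20.1 for CLIC6 (13.9 to 30.3). The other 3 genes differed less. KCNJ13 stood at 2.50 (2.13 to 2.96) and 2.07 (1.66 to 2.60) in the control and TMG arms, AQP1 at 1.35 (1.27 to 1.43) and 3.33 (2.99 to 3.71), and KL at 0.899 (0.433 to 1.88) and 0.801 (0.369 to 1.73). The replicate 2 libraries low in TTR and FOLR1 thus held AQP1 above every D30 library and KL at the level of replicate 1. These were the libraries with 45509 (control) and 59449 (TMG) summed CPM of mesenchymal markers. Which cells made AQP1 and KL there was not tested, so their rise to D70 cannot be assigned to choroid plexus.

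**Figure D3:**
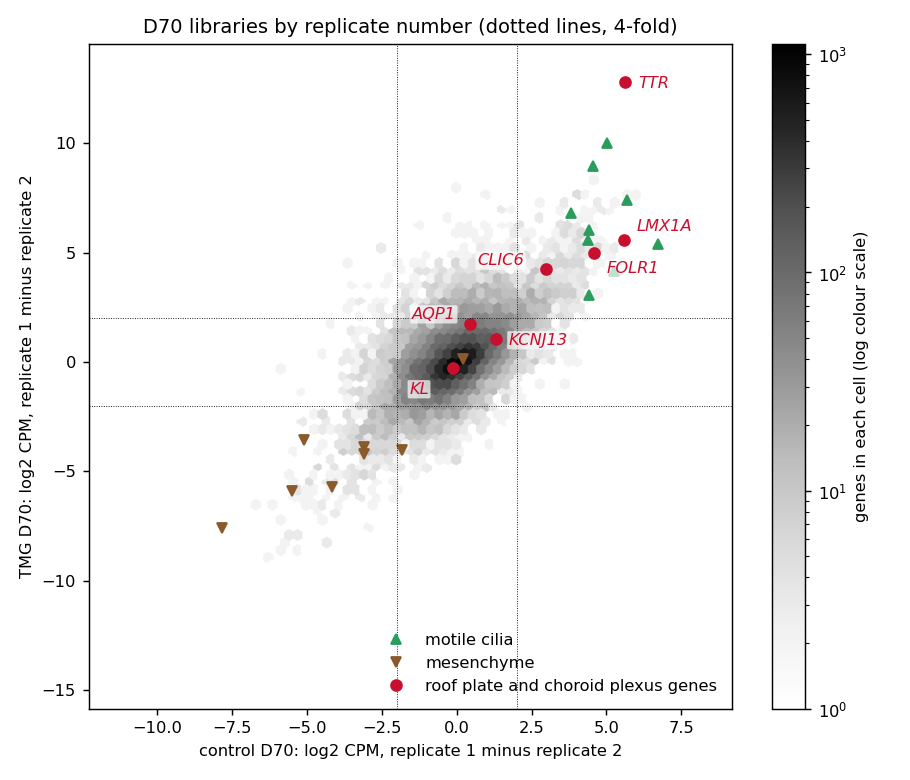
Difference between replicate 1 and replicate 2 at D70, in log2 CPM, in the control (x axis) and TMG (y axis) libraries, for the 24249 tested genes (grey cells, log colour scale) with the 7 genes, 9 motile cilia genes and 8 mesenchymal genes marked. TTR, CLIC6, FOLR1, LMX1A and the 9 cilia genes lie beyond 4-fold (dotted lines) at the upper right, and 6 mesenchymal genes at the lower left.

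Other markers moved with this division, and their part in the values of the 7 genes was not tested. All 9 tested genes of motile cilia, which choroid plexus epithelium carries, were at least 4-fold higher in replicate 1 in both arms, beside 2.95% of tested genes. FOXJ1, the master factor of motile cilia, held 4851 and 119 counts in the control and 1729 and 0 under TMG. Of the 8 mesenchymal markers, 6 were at least 4-fold higher in replicate 2 in both arms (COL1A1, COL3A1, LUM, DCN, TWIST1 and PRRX1), beside 2.8%. Of the retinal pigment epithelium list, whose cells also make TTR and KCNJ13, the summed CPM at D70 was 510.6 and 2509 in the control and 506.2 and 166.2 under TMG, with TYR and RLBP1 at 0 in TMG replicate 2. RPE65, the visual cycle enzyme that defines that epithelium, held 991, 17, 254 and 1 counts in the same order. It was the only one of the 9 tested genes of the list at least 4-fold higher in replicate 1 in both arms, 2 of the 9 were higher there at all in both arms, and the median log2 difference of replicate 1 from replicate 2 was −2.74 in the control and 3.79 under TMG. The pigment gene DCT peaked at 1076.6 CPM in control replicate 2. Of the yolk sac and liver list, the other sources of TTR, the summed CPM was 7.1 and 94.2 in the control and 6.3 and 2.8 under TMG. AFP, its defining gene, was at 2 counts in D70 control replicate 1 and at 0 in TMG replicate 1, the libraries with the highest TTR, and at 231 counts in control replicate 2. The 8 other genes of the midbrain floor plate, where LMX1A is also made, summed to 4.94 to 12.2 CPM at D0, 44.3 to 91.7 CPM at D12, 62.3 to 166.4 CPM at D30 and 30.6 to 90.3 CPM at D70. From D0 to D12 1 of the 7 tested rose in the control (CORIN, 5.76, adjusted p = 0.00883), beside 6.97% of all tested genes that rose and 9.71% that fell. Under TMG 2 rose (CORIN, 7.33, adjusted p = 0.00393, and FERD3L, at 0 counts in both D0 TMG libraries, adjusted p = 0.0193). There 1 fell (FOXA1, −3.45), and of all tested genes 7.24% rose and 9.19% fell. FOXA2, a defining factor of the floor plate, was at 0 counts in all D30 libraries and in both D70 replicate 1 libraries, and at 0 or 1 at D12. CORIN, a floor plate marker also found in other cells, held 328 to 1375 counts at D12.

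Among themselves the 7 genes can be ordered by CPM per kilobase of exon. The length used is the union of all annotated exons of a gene, 2176 bases in TTR and 4185 in LMX1A. It comes from another annotation than the one used for counting and can exceed the length of the transcripts present. The order between genes, and near ties above all, therefore rests in part on these lengths. At D0 KCNJ13 led in all 4 libraries (2.06 to 2.64 CPM per kb). At D12 LMX1A led in all 4 (33.7 to 63.3), and the next gene was KCNJ13 in control replicate 1 (5.99) and TMG replicate 2 (4.87), FOLR1 in control replicate 2 (5.95) and CLIC6 in TMG replicate 1 (6.20). At D30 TTR led in all 4 libraries with 16.8 to 120.96 CPM per kb and LMX1A was next with 14.97 to 28.5, the pair being nearly equal in control replicate 1 (16.8 and 16.6). At D70 the order in control replicate 1 was TTR (4509), AQP1 (56.8), FOLR1 (50.0), LMX1A (27.1), CLIC6 (22.3), KCNJ13 (10.7) and KL (0.229). In D70 TMG replicate 2 AQP1 led with 12.2 CPM per kb, and TTR stood at 0.128. KL was lowest or next to lowest in every library but D70 TMG replicate 2, where TTR and LMX1A were below it.

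Across the 16 libraries the levels of KCNJ13 and FOLR1 were most alike among the 21 pairs, with Pearson's r = 0.9504 and Spearman's rho = 0.856 on log2 CPM. TTR and CLIC6 stood at r = 0.881, while LMX1A and KL (0.270) and AQP1 and LMX1A (0.295) were least alike. These values describe 16 libraries that share stages and replicates, and no p is given. Of 17323 named genes with a mean of at least 1 CPM, the 3 most like CLIC6 were CFAP100 (r = 0.982), WDR93 (0.969) and IQSEC1 (0.967), CFAP100 being a cilia- and flagella-associated protein. For TTR they were DPY19L2P2, RSPH14 and ABAT (0.959 to 0.961), and for LMX1A they were LMX1A-AS1 (0.979), WNT2B (0.975) and FRMD3 (0.974). LMX1A-AS1 is an antisense neighbour with 0 to 94 counts and no exon base in common with LMX1A. For KCNJ13 they were ZFYVE16 (0.961), FOLR1 (0.9504) and PRR18 (0.930), and for FOLR1 they were MAPRE3, BBS1 and PBXIP1 (0.956 to 0.960). For AQP1 they were B3GNT9, TMX4 and C1QTNF5 (0.969 to 0.972), and for KL they were SPNS2, CXCL16 and HOPX (0.905 to 0.915).

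The other 20 roof plate and cortical hem genes of the list used here were tested alongside. From D0 to D12 in the control 14 of 20 rose and none fell, beside 6.97% and 9.71% of all tested genes. The median log2 change was 4.01, beside 0.00 over all tested genes. Under TMG the counts were also 14 and 0, beside 7.24% and 9.19%, with a median of 4.22. Among the ligands, GDF7, a BMP ligand that marks the roof plate, rose by 8.76 (SE 0.67, adjusted p = 0.000113) in the control, BMP4 by 4.33 (SE 0.95), WNT1 by 9.42 (SE 1.64) and WNT3A, a hem ligand, by 4.22 (SE 0.89). GDF7 stood at 0.247 and 0.909 CPM at D0 and at 267.1 and 229.2 CPM at D12 in the control. Among the factors, LMX1B, the close relative of LMX1A, rose by 4.90 (SE 1.06), MSX1 by 3.52 (SE 0.88), MSX2 by 4.76 (SE 0.88) and PAX3, a dorsal neural tube factor, by 6.67 (SE 1.09). WNT8B, WNT2B, BMP7, RSPO1, ZIC1 and ZIC4 also rose, by 4.71, 6.18, 2.17, 2.31, 3.36 and 3.80. From D12 to D30 in the control WNT5A rose by 2.22 (SE 0.39) and GDF7 fell by 2.31 (SE 0.48), and no other gene of the list passed. Of all tested genes 1.91% rose and 1.69% fell there. From D30 to D70 none passed in either arm, with medians of −1.05 (control) and −1.36 (TMG). GDF7 and PAX3 fell in the control, and GDF7 under TMG, in the fit without both D70 replicate 2 libraries. Between D0 and D70 11 of 20 rose in the control and 13 under TMG, beside 15% and 14.9% of all tested genes. Fits with 1 library left out, which decided most calls of the 7 genes, are not given for this list. How firmly its counts from D0 to D12 and from D0 to D70 hold is therefore not shown. Without both D70 replicate 2 libraries 13 and 16 rose, beside 33.9% and 31.1% of tested genes called in either direction. At D70 WNT1, WNT2B, RSPO2 and ZIC4, 4 of the 20, were at least 4-fold higher in replicate 1 in both arms, as LMX1A was. This held for 2.95% of tested genes.

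Of the other 25 choroid plexus genes, 5 rose in the control from D0 to D12 (ENPP2, SULF1, CLDN1, SOSTDC1 and ABCA4) and none fell. Of all tested genes 6.97% rose and 9.71% fell there. From D12 to D30 none rose and 1 fell (TRPV4, −2.50, SE 0.57), beside 1.91% and 1.69%. From D30 to D70 2 rose, TRPV4, a cation channel (3.48, SE 0.59), and ABCA4 (4.12, SE 0.46), which is best known from photoreceptors. Of all tested genes 0.305% rose there. From D0 to D70 16 rose and none fell, beside 15% of all tested genes that rose and 14.7% that fell. The median was 3.56, beside 0.03 over all tested genes. Under TMG 13 rose, beside 14.9%, with a median of 2.62. Fits with 1 library left out, which decided most calls of the 7 genes, are not given for this list either, so these counts may be no firmer. In the fit without both D70 replicate 2 libraries 13 and 2 rose from D30 to D70 in the control and under TMG, and 21 and 20 from D0 to D70, with D0 to D70 medians of 4.29 and 3.44. In that fit 5.78% and 0.263% of all tested genes were called in either direction from D30 to D70, and 33.9% and 31.1% from D0 to D70. Among the 16 were the tight junction genes CLDN1 (3.64, SE 0.64) and CLDN2 (5.28, SE 1.18), the sodium bicarbonate transporter SLC4A5 (5.67, SE 1.55), the sodium-potassium-chloride cotransporter SLC12A2 (1.08, SE 0.26), TMEM72 (5.68, SE 1.15), the BMP antagonist SOSTDC1 (6.45, SE 0.71) and WFIKKN2 (7.22, SE 1.69). The others were TRPM3, CAB39L, PRLR, ECRG4, ENPP2, SULF1, SLC13A4, IGF2 and ABCA4, with log2 changes between 1.74 and 9.14. HTR2C, the serotonin receptor of choroid plexus, was 900.6 and 31.5 CPM in the D70 control and 247.9 and 0.185 CPM in the D70 TMG libraries, the order of the libraries being that of TTR. OTX2 was 184.2, 122.01, 216.9 and 0.0925 CPM in the same libraries. IGF2 went the other way, with 188.04 and 4257.5 CPM in the control and 176.5 and 9312 CPM under TMG, and it makes up most of the summed level of this list in replicate 2. At D70 8 of the 25 genes were at least 4-fold higher in replicate 1 in both arms (HTR2C, SLC4A5, SLC13A4, CLDN2, CLDN3, WFIKKN2, F5 and SULF1), beside 2.95% of tested genes. IGF2 was so in replicate 2, beside 2.8%. No gene of either list passed the TMG test at any stage in edgeR. DESeq2 called ABCA4 (1.86 at D12, −2.27 at D70), LMX1B and MSX1 (2.86 and 2.76 at D30) and PAX3 (3.37 at D70). Of its tested genes it called 0.064%, 3.04% and 0.296% at D12, D30 and D70. How these calls hold with a library left out is not given. The part of the high mesenchymal markers in D30 TMG replicate 2, and of the division of the D70 libraries, was not tested.

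**Figure D4:**
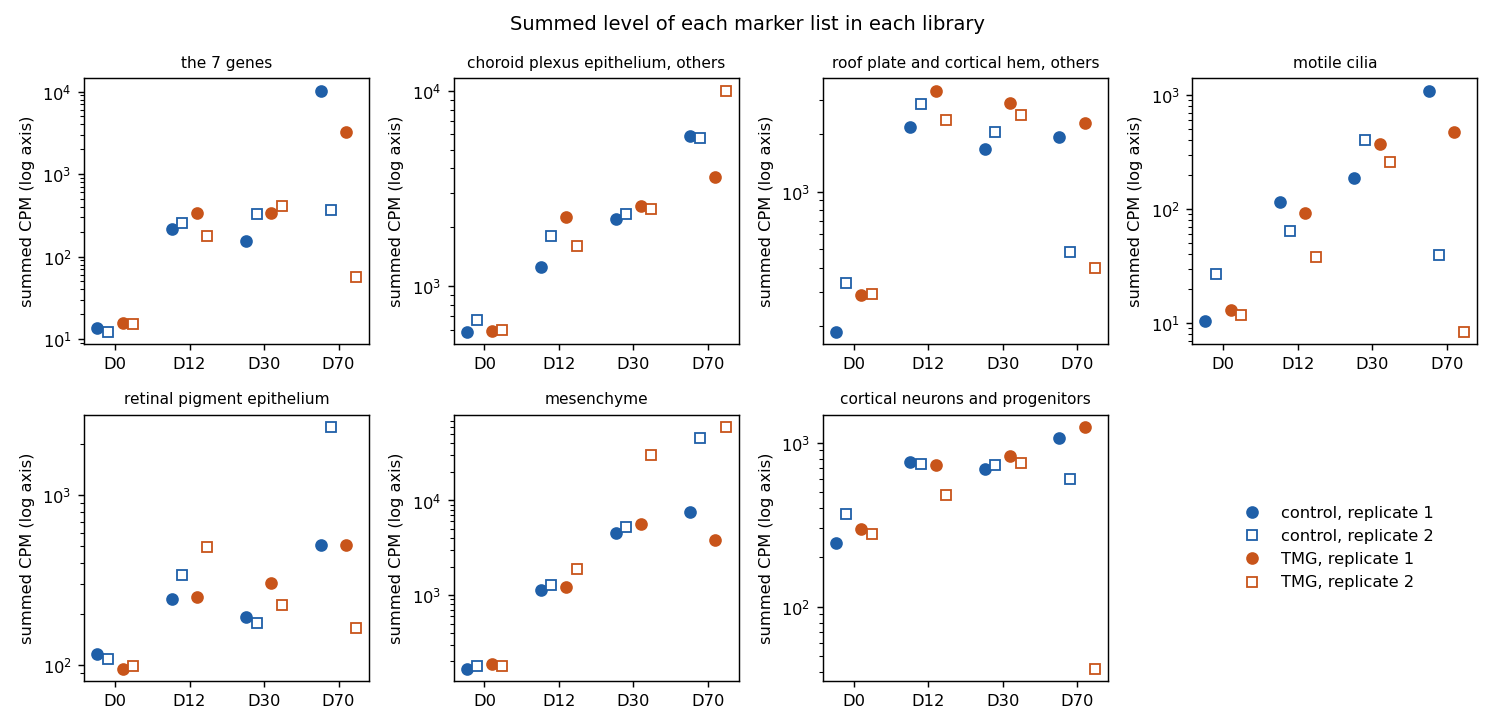
Summed CPM (log axis) of the 7 genes and of 6 marker lists in each library, by stage, with control in blue and TMG in orange, replicate 1 as filled circles and replicate 2 as open squares. The roof plate list stood at 2165 to 3353 at D12 and at 1667 to 2887 at D30, and at D70 the cilia list stood at 1096 and 476.6 in the replicate 1 libraries and at 39.8 (control) and 8.32 (TMG) in the replicate 2 libraries.

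Related genes were compared to see whether the family or the single gene was high. FOLR2 and FOLR3, the folate receptors nearest to FOLR1, were at or under 0.563 CPM in every library. KLB, the relative of KL, fell from D0 to D70 in the control by 1.63 (SE 0.55, adjusted p = 0.0468), while KL rose, and the value without both D70 replicate 2 libraries was −1.99 (adjusted p = 0.0172). AQP3 and CLIC5, relatives of AQP1 and CLIC6, were at least 4-fold higher at D70 in replicate 2 in both arms, at 28.2 and 3.09 CPM for AQP3 in control replicates 2 and 1 and 219.7 and 5.37 CPM under TMG. CLIC6 was high in the libraries in which CLIC5 was low. KCNJ2 rose from D0 to D70 in the control by 2.14 (SE 0.66), or 2.66 (SE 0.40) without those libraries, and KCNJ10 did not pass the test. Of the AQP1 exon bases, 27.9% overlap a read-through gene on the same strand, which held 0 to 2 counts.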

How the data were processed

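RNA from 16 libraries of H9 cells was analysed as 1 table of gene counts. Per the labels and the study's methods, the authors aligned reads to hg19 with Bowtie2 and estimated counts with RSEM 1.2.12 on Ensembl GRCh37 genes. The deposited values are expected counts given as whole numbers, not normalized. RSEM divides reads among genes that share sequence, and the sources used here do not state whether strand was used. Counts were tested with edgeR 4.0.16 (R 4.3.3): TMM scaling, filterByExpr over the 8 groups (24249 of 57736 genes), the quasi-likelihood test on all 16 libraries (8 residual degrees of freedom) and Benjamini-Hochberg adjustment, called at 0.05. Each SE is the size of the log2 change over the root of F. Log2 CPM used a prior count of 2. Alternatives were DESeq2 1.42.0, RLE scaling, no filter, a replicate block, each stage alone, each library left out, a prior count of 0.5 and, added after seeing the data, both D70 replicate 2 libraries left out. Intervals of ratios are exact binomial at 95% and cover counting error only. The study calls the replicates biological and the labels name no separate cultures, so p-values measure the spread between these libraries. All 7 genes are named with every library; of the other lists, the rule was to name each gene past the threshold in a comparison described, otherwise up to 4 of the highest mean CPM. It was followed in full for the cilia list, the choroid plexus list in the control on all libraries, and the roof plate list in the control up to D30. Elsewhere counts stand in for names, and stage changes of most marker lists are described in part or not at all. The genes named there (among them markers of the D70 libraries, HTR2C and OTX2) were chosen after their values were seen. The genes and lists were chosen with earlier results of these data known. CCDC39 and PECAM1 were not matched by name in 2 of the lists. The fits were tested on simulated data. The simulated counts varied independently between libraries and held no division by replicate number like that at D70. That test therefore says nothing of the calls that rest on the D70 libraries.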

Additional observations from a re-analysis of the deposited data

Results flagged for a closer look

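AQP1 is listed because its TMG and control libraries stood in opposite order at 2 stages, although it passed the test at neither. At D30 both TMG libraries were above both controls, by 1.17 on the log2 scale, and at D70 both were below, by −0.91. With 1 library left out the D30 value ranged from 0.79 (without D30 TMG replicate 2) to 1.47 (without D30 TMG replicate 1). The D70 value ranged from −2.03 (without D70 TMG replicate 1) to −0.28 (without D70 TMG replicate 2), and it was −0.48 without both D70 replicate 2 libraries. The difference between the stages, tested as an interaction in edgeR, was −2.08 (SE 0.68), and it did not pass after adjustment over all genes (adjusted p = 1). It was −1.66 (SE 0.49, adjusted p = 0.93) without both D70 replicate 2 libraries, and it passed without D70 TMG replicate 1 (−3.20, adjusted p = 0.0151), where that arm is left with 1 library. No group had more than 2 libraries, so single libraries could not be tested as outliers.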

How the results depend on the processing

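RLE scaling changed no direction and no call of the 7 genes and no count by over 1.5 times. The fits of each stage alone, which bear only on TMG against control, changed no direction or call where a gene passed their filter (TTR, FOLR1, LMX1A and KL at D0 and KL at D12 and D30 did not). A prior count of 0.5, tried only on the D70 replicate difference, left the number of genes apart at 4. DESeq2 called 5, 11, 595 and 55 genes for TMG at D0, D12, D30 and D70 where edgeR called 0, and 2489, 1712, 1159 and 370 genes for the control D12 to D30, control D30 to D70, TMG D12 to D30 and TMG D30 to D70 changes. It called 3, 17 and 21 genes for the interactions, 2 of the 7 genes from D0 to D12 under TMG, and, of the 6 for which it gave an adjusted p (all but KL), 2 from D12 to D30 in the control and 1 from D30 to D70 under TMG. Without the filter on low counts 1, 21 and 3 genes were called for TMG at D0, D30 and D70, and 331, 227 and 21 for the control D30 to D70, TMG D12 to D30 and TMG D30 to D70 changes. That setting gave 1, 1 and 3 genes for the interactions. Of the 7 genes it called 1, 0 and 3 in the control (D0 to D12, D12 to D30, D0 to D70), among 3074, 804 and 5691 genes, and 0 and 2 under TMG (D0 to D12, D0 to D70), among 3121 and 5462.

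Replicate numbers were not treated as pairs: the replicate differences of the arms correlated at 0.045, 0.367, 0.223 and 0.607 at D0, D12, D30 and D70, with 2 numbers a stage. With the replicate block 233 and 1 genes were called for TMG at D30 and D70 and 184 for control D30 to D70. The block turned TTR from D0 to D12 in the control to 0.57 (DESeq2 0.011, edgeR −0.04) and KL from D12 to D30 under TMG to 0.049, and it called KL from D0 to D70 under TMG (3.98). It changed no other call of the 7 genes. Set side by side by number, TMG was below control in both D70 replicate numbers in 6 of the 7 genes (all but KL), beside 28.8% of tested genes, and with the block the D70 estimates were −4.20 in TTR, −1.38 in CLIC6, −0.70 in KCNJ13, −1.33 in FOLR1, −1.13 in AQP1 and −1.07 in LMX1A, none of which passed.

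Without both D70 replicate 2 libraries 234 and 10 genes were called for TMG at D30 and D70. The stage counts were then 7091, 3139 and 1473 in the control (D0 to D12, D12 to D30, D30 to D70) and 6957, 1896 and 67 under TMG, with 5, 2 and 4 and with 6, 2 and 2 of the 7 genes. LMX1A (control D30 to D70) turned to 0.40, and CLIC6 and KCNJ13 (TMG D30 to D70) to 0.62 and 0.35.

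Leaving out 1 library gave 0 to 175 genes for TMG at D30 and 0 to 799 at D70, with 0 to 2 of the 7. Control counts were 1021 to 5259, 0 to 1460, 0 to 690 and 3678 to 8828 for D0 to D12, D12 to D30, D30 to D70 and D0 to D70, with 0 to 4, 0 to 2, 0 to 1 and 1 to 7 of the 7. TMG counts were 836 to 5193, 0 to 547, 0 to 1639 and 2837 to 7650, with 0 to 3, 0 to 1, 0 to 1 and 1 to 5. The D30 to D70 interaction gave 0 to 362 genes and 0 to 1 of the 7. TMG estimates that changed sign ranged at D0 from −3.84 to 4.25 in TTR, −0.67 to 0.22 in AQP1 and −2.31 to 3.62 in KL. At D12 they were −0.69 to 1.30 in CLIC6, −0.19 to 0.12 in KCNJ13, −0.37 to 0.93 in FOLR1, −0.39 to 0.22 in AQP1, −0.46 to 0.44 in LMX1A and −2.03 to 2.13 in KL. At D30 they were −0.16 to 0.23 in KCNJ13, −0.10 to 0.089 in FOLR1 and −0.46 to 0.47 in LMX1A. At D70 they were −14.11 to 2.89 in TTR, −4.33 to 1.25 in CLIC6, −1.38 to 0.065 in KCNJ13, −5.36 to 2.54 in FOLR1, −5.84 to 3.64 in LMX1A and −0.039 to 0.27 in KL. In the control TTR (D0 to D12) ranged from −0.99 to 6.66 and FOLR1 (D12 to D30) from −0.93 to 0.34. From D30 to D70 the control ranges were −0.72 to 2.23 in CLIC6, −0.12 to 1.17 in KCNJ13, −0.61 to 3.99 in FOLR1 and −5.26 to 0.36 in LMX1A. Under TMG KL ranged from −0.53 to 5.96 (D0 to D12) and −1.40 to 2.80 (D12 to D30). From D30 to D70 the TMG ranges were −9.48 to 3.85 in TTR, −3.72 to 0.62 in CLIC6, −0.71 to 0.35 in KCNJ13 and −2.26 to 2.90 in FOLR1, and from D0 to D70 −0.64 to 3.70 in CLIC6. Apart from fewer libraries or more genes tested, the cause of these shifts was not tested.

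With 2 libraries a group, the D0 values of LMX1A, FOLR1, TTR and KL rest on few counts (1 to 6 in LMX1A). The single-library fits at D0 and D70 decide most calls of the 7 genes.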

Other observations

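The genes of motile cilia, which choroid plexus epithelium carries, were measured at every stage. Bulk RNA does not tell which cells made them. In the control 4 of 9 rose from D0 to D70 (SPAG6, RSPH1, TEKT1 and PIFO, by 8.88, 7.09, 12.42 and 4.78) and none fell, beside 15% of all tested genes that rose, and under TMG 2 rose (SPAG6 by 6.91 and RSPH1 by 6.26), beside 14.9%. The high D70 levels were those of replicate 1: the summed CPM of the list was 1096 (control) and 476.6 (TMG) there, and 39.8 and 8.32 in replicate 2, the last below every D0 library (10.4 to 27.1). The fit without both D70 replicate 2 libraries drops the libraries in which all 9 genes were at least 4-fold lower. It was chosen after seeing the data and leaves 1 library in each D70 arm, so it cannot decide whether these genes rose. With all libraries none passed between neighbouring stages or between TMG and control at any stage in edgeR. All 9 estimates for TMG were negative at D12 and at D70, with medians of −0.54 and −1.23. Their SEs were 1.15 to 2.00 at D12 and 1.15 to 1.81 at D70. The share of negative estimates over all tested genes is not given. The 9 genes followed the same division of the D70 libraries, so their signs are not separate observations and no TMG effect is read from them. TEKT1, a tubulin-binding protein of the axoneme, stood at 89.2 and 1.61 CPM in the D70 control and at 38.6 and 0.0925 CPM in the D70 TMG libraries.

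The endothelial list, a cell type of the plexus stroma, stood at 165 to 231 summed CPM at D0 and at 15.6 to 103 summed CPM after D0. The 10 cortical genes summed to 1075 and 598 CPM in the D70 control and to 1243 and 41.8 CPM under TMG.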
